A study of Arabidopsis thaliana with 12 samples.

Results

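The genes described here are the 10 type-A response regulators of Arabidopsis thaliana (ARR3 to ARR9 and ARR15 to ARR17). They were listed by gene identifier, with no cutoff on their values, but with earlier results of these data known. They are 10 of the 22054 genes listed in either expression table. RNA was measured in whole seedlings, 7 days after germination, grown on 1/2 MS plates and kept for 24 h with sodium nitroprusside (SNP, 1 mM), a donor of nitric oxide that can also release cyanide and iron, or without it (Mock). The groups were Col-0 Mock, Col-0 SNP, ap1/cal Mock and ap1/cal SNP, where Col-0 is the wild type and ap1/cal carries mutations in the floral regulators AP1 and CAL. Each of the 4 groups held 3 libraries (12 in all). The question was how each member responded to SNP within a genotype, and whether ARR7 responded as its relatives did.

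Cytokinin is perceived by histidine kinase receptors, and the signal passes as a phosphoryl group through phosphotransfer proteins to response regulators in the nucleus. Type-B regulators bind DNA and switch on target genes, among them the type-A genes. Type-A regulators have a receiver domain but no DNA-binding output domain, and they dampen the signal, so they act as a negative feedback and their transcripts are widely used as a readout of cytokinin response. In the shoot meristem WUSCHEL (WUS) is known to repress several of them, ARR7 among these.

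The family falls into pairs of close relatives. Identity was counted over the aligned positions of the TAIR10.1 coding sequences, with unaligned bases left out. By this measure the nearest relative of ARR7 was ARR15 (77.2% of aligned bases identical). ARR5 was nearest to ARR6 (81.5%), ARR3 to ARR4 (81.4%), ARR8 to ARR9 (81.3%) and ARR16 to ARR17 (84.7%). ARR3 and ARR4 aligned at 690 positions only, of coding lengths of 972 and 780 bases. ARR5 and ARR6 aligned at 550, of 555 and 561 bases. Despite this likeness, none of the 75 base stretches (the read length) within an exon of 9 members occurred elsewhere in the genome, and for ARR8 2.64% did.

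The promoters of ARR7, its closest relative ARR15, and the 3 members with the clearest falls (ARR4, ARR5 and ARR6) are shown because their transcripts moved in different ways. Each is the 250 bases before the RefSeq gene start, read 5′ to 3′ on the gene's strand. All 5 genes lie on the minus strand of TAIR10.1, with windows at chr1:6579315-6579564 (ARR7), chr1:28133026-28133275 (ARR15), chr1:3444361-3444610 (ARR4), chr3:17760951-17761200 (ARR5) and chr5:25254319-25254568 (ARR6). Capitals mark 3 forms of the core sequence bound by type-B regulators, on either strand. They are AGATT, its variant with C at the end (AGATC) and its variant with G at the start (GGATT). The variant with both changes (GGATC) was neither marked nor counted, and the ARR15 window holds it.
ARR7: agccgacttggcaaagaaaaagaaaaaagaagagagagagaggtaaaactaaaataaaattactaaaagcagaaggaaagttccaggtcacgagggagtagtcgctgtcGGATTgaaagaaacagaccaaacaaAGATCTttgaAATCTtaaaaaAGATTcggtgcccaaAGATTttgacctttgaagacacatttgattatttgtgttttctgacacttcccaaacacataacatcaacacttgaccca
ARR15: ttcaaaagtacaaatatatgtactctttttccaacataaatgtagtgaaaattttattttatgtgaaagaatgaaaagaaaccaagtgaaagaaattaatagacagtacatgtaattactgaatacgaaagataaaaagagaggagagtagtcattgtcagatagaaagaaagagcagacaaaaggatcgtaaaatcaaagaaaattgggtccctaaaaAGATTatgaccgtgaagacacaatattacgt
ARR4: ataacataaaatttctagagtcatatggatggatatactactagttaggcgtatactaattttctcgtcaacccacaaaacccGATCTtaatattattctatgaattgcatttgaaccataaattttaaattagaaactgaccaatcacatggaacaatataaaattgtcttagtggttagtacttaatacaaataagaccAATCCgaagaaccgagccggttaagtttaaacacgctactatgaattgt
ARR5: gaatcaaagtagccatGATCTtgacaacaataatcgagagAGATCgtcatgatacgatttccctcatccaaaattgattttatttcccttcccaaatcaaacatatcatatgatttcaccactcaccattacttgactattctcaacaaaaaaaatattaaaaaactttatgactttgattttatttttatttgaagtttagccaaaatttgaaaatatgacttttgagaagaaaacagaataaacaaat
ARR6: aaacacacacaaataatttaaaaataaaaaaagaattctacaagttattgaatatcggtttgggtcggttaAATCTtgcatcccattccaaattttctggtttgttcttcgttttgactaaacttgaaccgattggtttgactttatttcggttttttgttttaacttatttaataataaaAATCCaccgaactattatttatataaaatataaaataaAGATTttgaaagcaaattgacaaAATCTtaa

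The ARR7 window held 6 of these core motifs, between 76 and 141 bases before the gene start, and as many were found in 2.15% of 27443 promoters of the same length. Of the 6, a pair was the palindrome AGATCT read on both strands. ARR16 held 5 (5.96% of promoters had as many), ARR6 held 4 (14.2%), ARR15 held 1 (83.3%) and each of the other 6 members held 2 (55.5%), where the median promoter held 2. Singly, AGATT was present in 7 of 10 members and 63.7% of all promoters, AGATC in 5 and 26.6%, and GGATT in 6 and 38.0%. The longer form AAGATTC, which overlaps AGATT, was found in ARR7 alone of the 10 and in 6.13% of promoters. TTAATGG, a sequence described for WUS, was in none of the 10 windows and in 6.99% of promoters. Only this exact form within the 250 bases was searched, so other WUS sites were not assessed. Whether the number of core motifs goes with the SNP response was not tested.

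**Figure D1:**
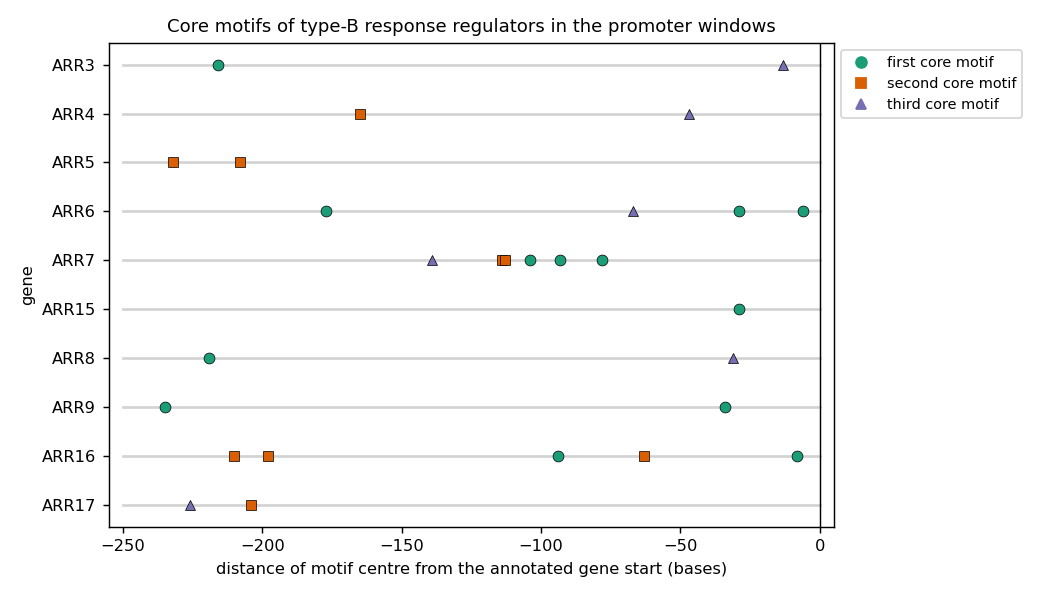
Position of the core motifs in the 250 bases before the gene start of each member. The x axis gives the distance of the motif centre from the start in bases, each row is a gene, and the markers stand for AGATT (first core motif), AGATC (second) and GGATT (the third) on either strand. The 6 motifs of ARR7 lie together in the middle of the window, and ARR15 has 1 such motif near the start.

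For genes with 1 transcript, low values were whole reads divided by 1 size factor per library. The factors were set by the authors separately for each genotype, so levels were compared within a genotype. Members with more than 1 transcript (ARR4, ARR9, ARR16 and ARR17, and ARR3 in Col-0) had values that were not whole in some or all libraries. For these members 1 factor per library was not established. Estimated reads per library ranged from 22.5 M to 59.7 M (1 M is 1e6). All 10 members were in both tables, and 9 passed the filter for low values (at least 10 in at least 3 libraries), all but ARR17. The size factors leave the summed values higher after SNP (37.1 M to 45.6 M) than in Mock (25.7 M to 29.3 M), and dividing by library size moved the median change over all tested genes, on the log2 scale, to -0.51 for Col-0 (from -0.02) and to -0.74 for ap1/cal (from -0.04). AP1 was in neither table and CAL in that of ap1/cal alone, so the genotype labels could not be checked on these genes.

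A member was called changed at a Benjamini-Hochberg adjusted p (limma, over 20623 genes) below 0.05 with a fold of at least 1.5. In Col-0, 3 of 9 members were called lower after SNP (ARR4, ARR5 and ARR6) and 0 higher (ARR7 alone was higher at an unadjusted p below 0.05, without the fold), where 29.1% of all genes were called lower, 26.9% higher and 55.9% in either direction. The members called lower in Col-0 were thus a share close to that of all genes, and those called in either direction a smaller one. In ap1/cal, 6 of 9 were called lower (ARR3, ARR4, ARR5, ARR6, ARR8 and ARR16) and 1 higher (ARR7), where 33% of all genes were called lower, 29.8% higher and 62.9% in either direction. These counts depend on the scaling: with library-size scaling 7 members were called lower in each genotype (as were 9458 of the 20623 genes for Col-0, and 11154 for ap1/cal), with upper-quartile scaling 5 in Col-0 and 7 in ap1/cal (7513 and 8880 genes), and ARR7 was called higher under neither. The 9 members had a median log2 fold change of -0.41 (Col-0) and -0.98 (ap1/cal), beside -0.02 and -0.04 over all genes.

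**Figure D2:**
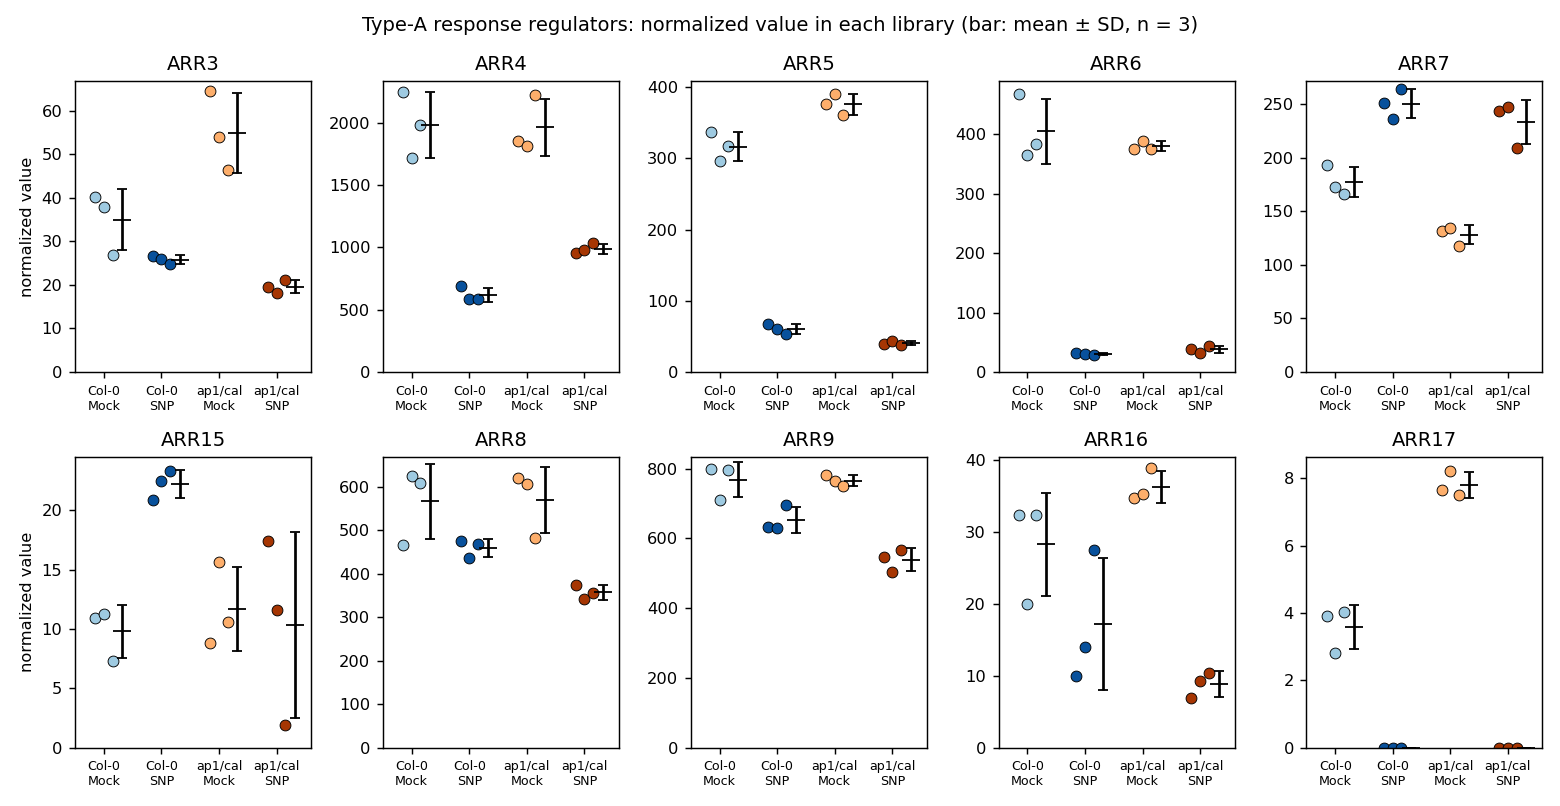
Normalized value of each member in each library. Points are libraries, the y axis starts at 0, and the horizontal mark and bar give the mean ± SD of 3 libraries. SNP libraries lie below Mock for ARR4, ARR5 and ARR6, and above Mock for ARR7, in both genotypes on the authors' scaling.

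ARR5 (AT3G48100, chr3:17758427-17760950) and ARR6 (AT5G62920, chr5:25252007-25254318) are rapidly induced by cytokinin, and the ARR5 promoter is a common cytokinin reporter. ARR5 stood at 337, 296 and 317 in Col-0 Mock and at 68.0, 59.8 and 53.7 in the Col-0 SNP libraries. In ap1/cal it stood at 376, 391 and 361 in Mock and at 40.0, 43.1 and 38.4 in SNP. Every SNP library was far below every Mock library of its genotype. The log2 fold change of ARR5 was -2.37 (SE 0.12, adjusted p = 7.14e-10) in Col-0 and -3.18 (SE 0.12, adjusted p = 2.62e-11) in ap1/cal.

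ARR6 had the lowest log2 fold change of the 9 members in both genotypes, with an interval that overlapped that of ARR5 in ap1/cal. It stood at 468, 365 and 384 in Col-0 Mock and at 31.4, 30.8 and 29.2 in the Col-0 SNP libraries. In ap1/cal the Mock libraries gave 376, 389 and 376 and the SNP libraries 39.0, 31.5 and 44.1. The groups were well apart in both genotypes. The log2 fold change was -3.68 (SE 0.14, adjusted p = 5.47e-11) in Col-0 and -3.30 (SE 0.14, adjusted p = 1.03e-10) in ap1/cal. ARR6 overlaps AT5G62910 on the opposite strand, whose mean value went from 768 to 2794 (Col-0) and from 666 to 3888 (ap1/cal), the opposite way to ARR6. Whether reads were counted by strand is not given in the sources used here, so reads of this overlap cannot be told apart.

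ARR4 (AT1G10470, chr1:3441988-3444360), which is known to bind the light receptor phytochrome B, was the most abundant member per kilobase in Mock. It stood at 2252, 1717 and 1986 in Col-0 Mock and at 687, 583 and 589 in the Col-0 SNP libraries. In ap1/cal it stood at 1859, 1811 and 2224 in Mock and at 957, 980.4 and 1034 in SNP. All SNP libraries were below all Mock libraries, and the gap was wider in Col-0. SNP changed ARR4 by -1.67 on the log2 scale (SE 0.11, adjusted p = 7.95e-09) in Col-0 and by -0.98 (SE 0.11, adjusted p = 1.42e-06) in ap1/cal.

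ARR3 (AT1G59940, chr1:22065617-22067233), the close relative of ARR4, acts with it on the period of the circadian clock. ARR3 stood at 40.1, 37.9 and 26.9 in Col-0 Mock and at 26.6, 26.0 and 24.7 in Col-0 SNP. The ap1/cal libraries gave 64.5, 53.8 and 46.3 in Mock and 19.5, 18.2 and 21.1 in SNP. The groups did not overlap in either genotype, but in Col-0 the lowest Mock library lay just above the highest SNP library. The log2 fold change was -0.41 (SE 0.21, adjusted p = 0.094), not called, in Col-0 and -1.43 (SE 0.21, adjusted p = 2.68e-05) in ap1/cal.

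ARR7 (AT1G19050, chr1:6577833-6579314), which limits cytokinin signalling in the shoot meristem, was the 1 member with higher values after SNP in both genotypes on the authors' scaling, though not with library-size scaling. In Col-0 it stood at 193, 173 and 166 in Mock and at 251, 236 and 264 in SNP. In ap1/cal it stood at 132, 135 and 118 in Mock and at 243, 247 and 209 in SNP. All SNP libraries lay above all Mock libraries of the same genotype. The log2 fold change was 0.86 (SE 0.11, adjusted p = 6.67e-06) in ap1/cal and 0.50 (SE 0.11, adjusted p = 9.79e-04) in Col-0, where it fell short of the fold of 1.5, with a 95% interval of 0.26 to 0.73. With each library divided by its own total, the ARR7 change was -0.000392 (adjusted p = 0.998) in Col-0 and 0.15 (adjusted p = 0.290) in ap1/cal, both above the median of all genes under that scaling (-0.51 and -0.74).

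ARR15 (AT1G74890, chr1:28131447-28133025) overlaps with ARR7 in its known role in the meristem, but it was expressed at a few reads per library. In Col-0 it stood at 10.9, 11.3 and 7.27 in Mock (9 to 14 reads) and at 20.9, 22.4 and 23.3 in SNP (12 to 27 reads). In ap1/cal it stood at 8.79, 15.6 and 10.6 in Mock (11 to 36 reads) and at 17.4, 11.6 and 1.92 in SNP (1 to 17 reads). The Col-0 SNP libraries all lay above Mock, whereas in ap1/cal the SNP libraries spread from below the lowest to above the highest Mock library. Neither log2 fold change was called, at 1.12 (SE 0.54, adjusted p = 0.0724) in Col-0 and -0.49 (SE 0.54, adjusted p = 0.407) in ap1/cal. The 4 groups shared 1 estimate of the spread, so the wide spread of the ap1/cal SNP libraries also enters the Col-0 SE and p. Without ap1/cal SNP replicate 3, which held 1 read of ARR15, the Col-0 change of 1.12 was called (adjusted p = 0.00422) and the ap1/cal change became 0.30 (adjusted p = 0.420). Without ap1/cal SNP replicate 1 the Col-0 change was called too (adjusted p = 0.0431).

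ARR8 (AT2G41310, chr2:17221840-17224880, named RR3 in RefSeq) and ARR9 (AT3G57040, chr3:21109059-21111567) respond less to added cytokinin than ARR5 or ARR7. ARR8 stood at 467, 626 and 608 in Col-0 Mock and at 476, 436 and 468 in Col-0 SNP, and the groups overlapped. The ap1/cal libraries gave 621, 607 and 483 in Mock and 375, 341 and 357 in SNP, with all SNP libraries below Mock. On the log2 scale ARR8 changed by -0.29 (SE 0.12, adjusted p = 0.0425), below the fold threshold, in Col-0 and -0.66 (SE 0.12, adjusted p = 1.84e-04) in ap1/cal. That call was lost with length and GC trends removed (-0.34, adjusted p = 0.0143), under the fold of 1.5.

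ARR9 stood at 799, 710.2 and 795 in Col-0 Mock and at 632, 629 and 695 in Col-0 SNP. The ap1/cal libraries gave 782, 763 and 751 in Mock and 545, 504 and 567 in SNP. The SNP libraries lay below Mock in both genotypes, by a small step. ARR9 passed the adjusted p but not the fold in both, with log2 fold changes of -0.24 (SE 0.08, adjusted p = 0.0128) in Col-0 and -0.51 (SE 0.08, adjusted p = 3.38e-05) in ap1/cal.

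ARR16 (AT2G40670, chr2:16969673-16972113) and ARR17 (AT3G56380, chr3:20905264-20906397), known from the stomatal lineage of leaves, were expressed at low levels. ARR16 stood at 32.4, 20.1 and 32.4 in Col-0 Mock and at 9.98, 14.1 and 27.6 in Col-0 SNP, where SNP replicate 3 overlapped Mock. The ap1/cal libraries gave 34.8, 35.3 and 38.9 in Mock and 6.87, 9.27 and 10.5 in SNP, with the groups well apart. On the log2 scale the change was -0.77 (SE 0.34, adjusted p = 0.0527), not called, in Col-0 and -1.94 (SE 0.34, adjusted p = 1.32e-04) in ap1/cal. The Col-0 change was called without Col-0 SNP replicate 3 (-1.16, adjusted p = 0.00474) and without Col-0 Mock replicate 2 (-0.99, adjusted p = 0.0274).

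ARR17 stood at 3.90, 2.82 and 4.04 in Col-0 Mock and at 7.64, 8.23 and 7.52 in ap1/cal Mock, and it was 0 in all 6 SNP libraries. A count of 0 allows up to 3 reads, a value of 2.49 to 5.76 in the SNP libraries. Against this floor, averaged over libraries, ARR17 was at least 1.69-fold lower after SNP in ap1/cal, and in Col-0 the Mock mean (3.59) was under the floor, so that no fold is given. These limits cover counting error only and assume that ARR17 values were set by 1 factor per library.

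**Figure D3:**
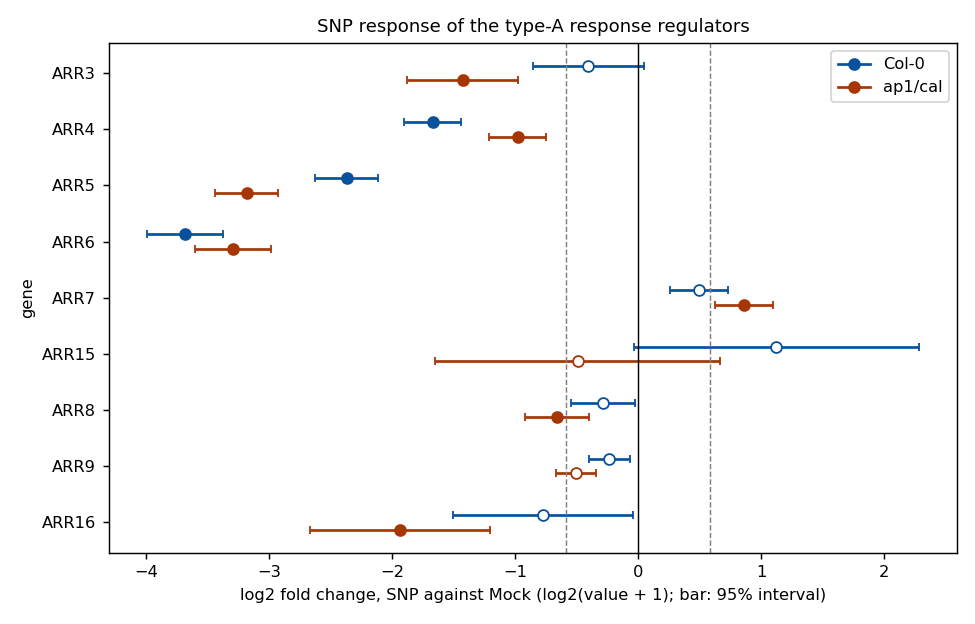
Log2 fold change of SNP against Mock for the 9 members that passed the filter. Points are estimates in Col-0 and ap1/cal, bars are 95% intervals, filled points were called changed, and dashed lines mark a fold of 1.5. ARR5 and ARR6 lie farthest to the left in both genotypes, and ARR7 lies at 0.50 and 0.86 (-0.000392 and 0.15 with library-size scaling).

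By library, SNP lay below Mock without overlap for 5 of the 9 members in Col-0 and 7 of 9 in ap1/cal, where 39.5% and 42.1% of all genes did so. SNP lay above Mock without overlap for 2 members in Col-0 (ARR7 and ARR15) and 1 in ap1/cal (ARR7), where 39.1% and 40.2% of all genes did so. In these bulk samples, fewer cells that express a gene and less RNA per cell cannot be told apart.

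ARR7 was then set against each relative by the ratio of the values in the same library, a measure in which the size factor cancels except through the pseudocount of 1. Any further factor for members with more than 1 transcript would not cancel. Relative to ARR7, 7 of 8 members tested fell in Col-0 and 8 of 8 in ap1/cal, where 46% and 59% of all genes fell relative to ARR7 (61.5% and 72.5% changed in either direction). The ratio to ARR7 fell by 4.18 on the log2 scale for ARR6 in Col-0 (SE 0.18, adjusted p = 6.73e-13) and by 4.15 in ap1/cal (SE 0.18, adjusted p = 3.97e-13). ARR5 followed, with -2.87 in Col-0 (SE 0.15, adjusted p = 1.13e-11) and -4.04 in ap1/cal (SE 0.15, adjusted p = 7.36e-14). The other called changes lay between -0.73 (ARR9) and -2.17 (ARR4) in Col-0 and between -1.35 (ARR15) and -2.79 (ARR16) in ap1/cal.

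ARR15 was the 1 relative whose ratio to ARR7 was not called in Col-0, at 0.63 (95% interval -0.39 to 1.65, adjusted p = 0.250). In ap1/cal its ratio fell by 1.35 (SE 0.48, adjusted p = 0.0156). That call was lost without ap1/cal Mock replicate 2 (-1.17, adjusted p = 0.0593) and without ap1/cal SNP replicate 3 (-0.63, adjusted p = 0.112). The members nearest to ARR7 in response were otherwise ARR8 and ARR9 in Col-0 (-0.79 and -0.73), and both lost the call with the trend of fold change on exon length and GC content removed (-0.23 and -0.38).

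**Figure D4:**
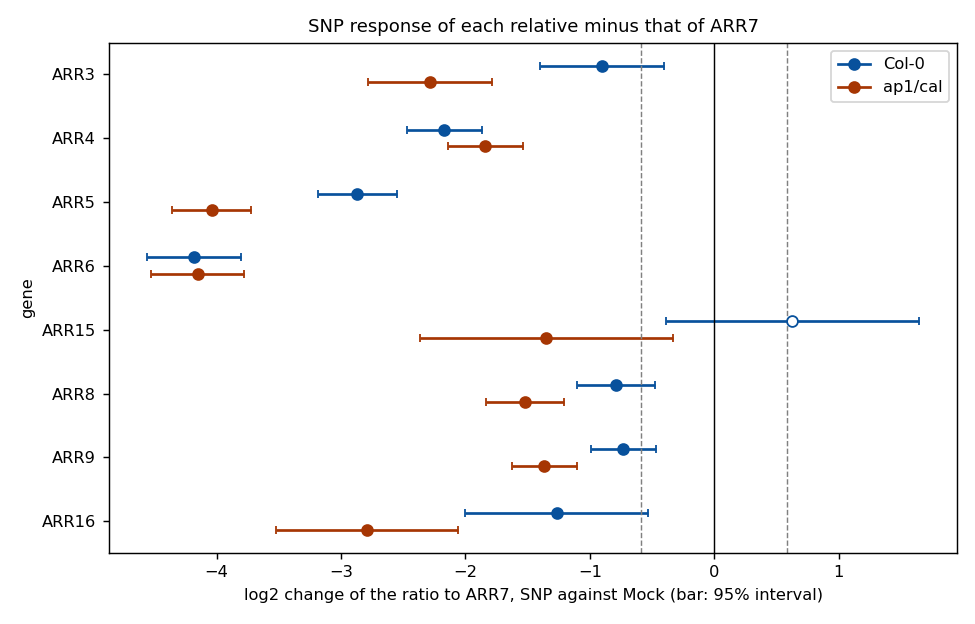
Change of each relative's ratio to ARR7, SNP against Mock, on the log2 scale. Points are estimates, bars are 95% intervals, filled points were called changed, and dashed lines mark a fold of 1.5. All relatives lie left of 0 but ARR15 in Col-0, at 0.63 with an interval across 0.

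Per kilobase of exon, ARR7 went from rank 6 in Mock to rank 3 in SNP in both genotypes. In Col-0 Mock the order was ARR4 (946), ARR9 (406), ARR6 (278), ARR8 (239), ARR5 (218), ARR7 (188), ARR3 (26.7), ARR16 (13.6), ARR15 (9.10) and ARR17 (5.80), with ARR6 to ARR7 and ARR16 to ARR15 overlapping their neighbours. In Col-0 SNP ARR9 (344) led, followed by ARR4 (295) and ARR7 (265), which overlapped, and by ARR8 (194), ARR5 (41.7), ARR6 (20.9), ARR15 (20.6), ARR3 (19.7) and ARR16 (8.29), of which ARR6, ARR15 and ARR3 overlapped. ARR5 and ARR6 thus left the upper group and ARR7 did not.

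In ap1/cal Mock the order per kilobase was ARR4 (936), ARR9 (404), ARR6 (261), ARR5 (259), ARR8 (241), ARR7 (136), ARR3 (41.8), ARR16 (17.5), ARR17 (12.6) and ARR15 (10.8), with overlap from ARR6 to ARR8 and between ARR17 and ARR15. In ap1/cal SNP it was ARR4 (472), ARR9 (284), ARR7 (247), ARR8 (151), ARR5 (27.9), ARR6 (26.2), ARR3 (14.95), ARR15 (9.56) and ARR16 (4.27). ARR5 overlapped ARR6 there, and ARR15 overlapped its neighbours.

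A share of the family's summed level per kilobase does not depend on a size factor common to all genes of a library. ARR7 made up 7.57 to 8.53% of this sum in Col-0 Mock and 21.4 to 22.6% in the Col-0 SNP libraries. In ap1/cal its share was 5.27 to 6.24% in Mock and 17.8 to 21.5% in SNP. The share of ARR6 went from 11.9% ± 0.78 (SD, n = 3) to 1.73% ± 0.10 with SNP in the wild type, and from 11.2% ± 0.39 to 2.11% ± 0.33 in the mutant. ARR4 went from 40.5% ± 2.31 to 24.4% ± 1.86 in Col-0, but only from 40.3% ± 3.87 to 38.1% ± 1.54 in ap1/cal, where the ranges of Mock (37.7 to 44.8%) and SNP (36.5 to 39.6%) overlapped.

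The response differed between genotypes, by the test of the difference itself, for 3 of 9 members (1 higher and 2 lower, where 7.6% of all genes were called higher, 6.97% lower and 14.6% in either direction). ARR4 fell less in ap1/cal (difference of the log2 fold changes, ap1/cal minus Col-0, 0.69, SE 0.15, adjusted p = 0.00587), whereas ARR5 fell more (-0.81, SE 0.17, adjusted p = 0.00435), as did ARR3 (-1.02, SE 0.30, adjusted p = 0.0253). The ARR3 call was lost without Col-0 Mock replicate 3 (adjusted p = 0.0642), ap1/cal Mock replicate 1 (0.0748) or ap1/cal Mock replicate 2 (0.0553), and that of ARR4 with library-size (0.48) or upper-quartile scaling (0.57), under the fold of 1.5. For ARR7 the difference was 0.36 (95% interval 0.03 to 0.69, adjusted p = 0.109), and for ARR6 it was 0.39 (95% interval -0.05 to 0.82, adjusted p = 0.181). The differences of the other 4 members tested were also not called, the widest being that of ARR15 (-1.62, 95% interval -3.26 to 0.02).

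Likeness of pattern to ARR7 was measured as the Pearson correlation of log2 values over 12 libraries, centred within each genotype, as a description. The points share libraries and treatment, so that any gene moved by SNP scores high in size. The most alike were MEE49 (AT4G01560, r = 0.989), AT5G15750 (0.988), AT5G11900 (0.986), AT1G14060 (0.986) and AT2G39960 (0.985). ARR15 reached 0.19, at place 9625 of 20622, and the other 7 relatives tested had negative values from -0.84 (ARR4) to -0.96 (ARR5). Within the family the most alike were ARR5 and ARR6 (0.976), followed by ARR4 and ARR6 (0.969).

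Of 41 other genes of the cytokinin pathway, 33 passed the filter. In Col-0, 8 were called higher and 13 lower, and in ap1/cal 8 higher and 15 lower, beside 26.9% higher and 29.1% lower of all genes in Col-0 and 29.8% and 33% in ap1/cal. The groups hold few genes each, so their counts are a description. Of these groups, only the receptors and the oxidases, both in Col-0, had the same counts with library-size and upper-quartile scaling as with that of the authors.

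Of the 3 receptor genes, 3 were called lower in Col-0 and 2 in ap1/cal (29.1% and 33% of all genes were). By limma with Benjamini-Hochberg adjustment, AHK2 had log2 fold changes of -2.80 (adjusted p = 1.58e-11) in Col-0 and -2.93 (6.16e-12) in ap1/cal, and AHK4 of -1.47 (1.77e-07) and -2.11 (3.12e-09). Of 6 phosphotransfer genes, 4 were called higher in Col-0, whereas ap1/cal had 5 higher and 1 lower. Of all genes, 26.9% were called higher in Col-0, and 29.8% higher and 33% lower in ap1/cal. With library-size scaling, 1 and 0 phosphotransfer genes were called higher in Col-0 and ap1/cal, and 1 and 1 lower. AHP6, which lacks the phosphorylated histidine and inhibits the pathway, rose by 1.24 (adjusted p = 0.00853) and 1.37 (0.00434), and AHP4 by 1.27 (2.73e-06) and 1.22 (3.16e-06). AHP6 was low, with means of 9.08 in Mock and 22.8 in SNP for Col-0, and 7.72 and 19.2 for ap1/cal. The size of its rise is uncertain, since 3 reads were worth up to 5.76.

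Of the type-B genes, which activate the type-A genes, 6 of 11 passed the filter, with 1 called higher and 1 lower in Col-0 and 1 higher and 2 lower in ap1/cal, and with library-size scaling 0 higher and 4 and 5 lower. ARR12 rose by 0.66 (4.41e-07) for Col-0 and by 0.90 (1.4e-08) for ap1/cal, and ARR14 had -0.61 (0.0021) and -0.74 (0.000431), with adjusted p in parentheses. Neither type-C gene (ARR22 and ARR24) passed the filter. Of 6 cytokinin response factors, which are AP2/ERF transcription factors, 2 were called higher and 2 lower in each genotype, and with library-size or upper-quartile scaling 3 were lower in Col-0 and 4 in ap1/cal. CRF6 rose by 2.93 (1.57e-07) and 4.02 (4.37e-09) and CRF5 by 2.27 (1.56e-07) and 2.38 (7.15e-08), whereas CRF1 had -1.63 (0.000124) and -1.19 (0.00136) and CRF3 had -0.97 (0.0235) and -1.66 (0.000651).

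Cytokinin oxidases break the hormone down, and 5 of 7 were called lower in each genotype (29.1% and 33% of all genes were), which became 7 with library-size and 6 with upper-quartile scaling in ap1/cal. CKX3 went from a mean of 11.8 in Col-0 Mock and 10.2 in ap1/cal Mock to 0 in all 6 SNP libraries, and CKX2 from 18.1 to 4.97 in Col-0 (adjusted p = 0.00301) and, within ap1/cal, from 36.0 to 0.982 (adjusted p = 1.41e-06). In the SNP libraries 3 reads were worth 2.49 to 5.76. The SNP means of CKX3 and CKX2 lie within or under that range, so the size of these falls is uncertain. Isopentenyltransferases make cytokinin, and of 5 that passed the filter 2 were called lower and 1 higher in Col-0 (29.1% and 26.9% of all genes) and 3 lower in ap1/cal (33%). The higher call was lost with library-size and upper-quartile scaling. IPT5 had log2 fold changes of -2.50 (2.73e-08) and -3.72 (3.32e-10), and IPT3 of -0.76 (0.00324) and -1.06 (0.000238).

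**Figure D5:**
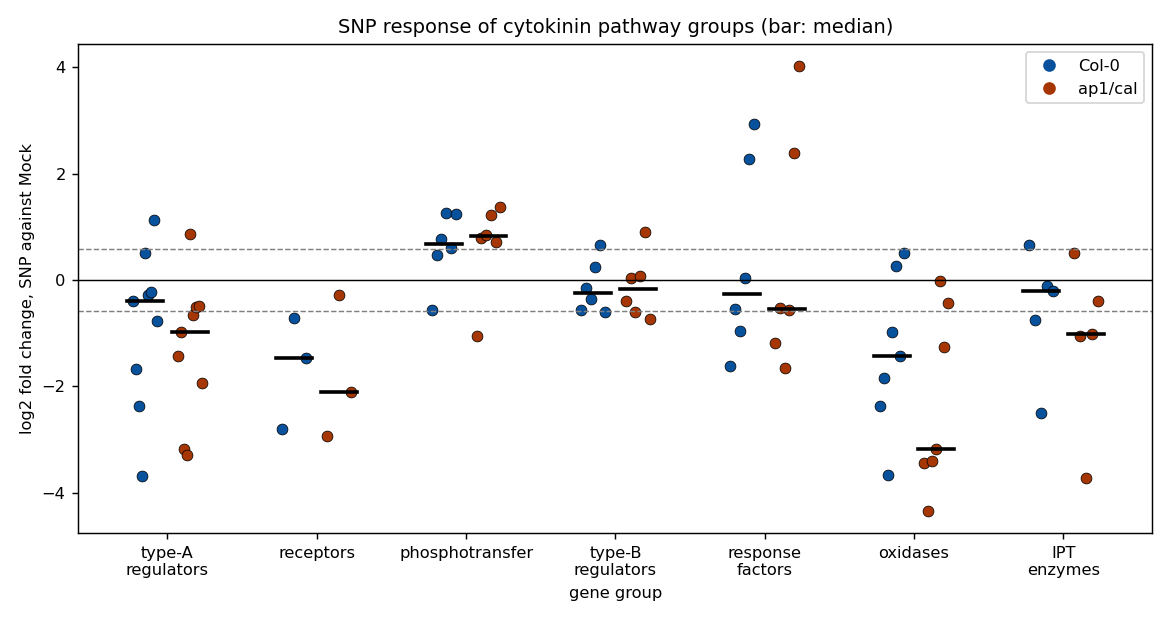
Log2 fold change of SNP against Mock for the genes of each cytokinin pathway group that passed the filter. Points are genes, black bars are group medians, and dashed lines mark a fold of 1.5. The receptors had a median of -1.47 (Col-0) and -2.11 (ap1/cal), and that of the phosphotransfer genes was 0.68 and 0.82 (0.18 and 0.11 with library-size scaling).

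Markers of seedling tissues moved with SNP as well. The summed value of 6 root markers was 1966 to 2585 in Col-0 Mock and 1083 to 1263 in Col-0 SNP, where 3 of the 6 were called lower (29.1% of all genes were). In ap1/cal it was 2231 to 2433 in Mock and 931 to 1102 in SNP, with 4 of 6 called lower (33% of all genes were). The root markers did not move alike. COBL9 (-4.79 in Col-0 and -5.86 in ap1/cal), EXPA7 (-3.87 and -6.81) and SHR (-1.49 and -1.88) were called lower in both genotypes. PLT1 was called lower in ap1/cal alone, and CASP1 (-0.43 and -0.36) and CO2 (-0.41 and -0.35) in neither. With library-size scaling, 5 root markers were called lower in Col-0 and 6 in ap1/cal. All 3 vascular markers were called lower in both genotypes, and their sum was 4576 to 4864 in Col-0 Mock, 1975 to 2189 in Col-0 SNP, 4892 to 5326 in ap1/cal Mock and 2435 to 2818 in ap1/cal SNP. Of 4 leaf mesophyll markers, 2 were called higher in Col-0 and 1 in ap1/cal (26.9% and 29.8% of all genes were). With library-size scaling, 1 and 2 of them were called lower instead. Of the shoot meristem markers, WUS was in neither table, CLV3 did not pass the filter, STM was not called and KNAT1 was called lower in both genotypes (-0.61 and -1.28). Several members are expressed in roots and vasculature, and the part of these markers in the members' changes was not tested.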

How the data were processed

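Whole seedlings of 4 groups were profiled by sequencing of poly(A)-selected RNA with a directional kit. Per the labels and methods, the authors aligned reads with STAR to TAIR10. The authors also name FastQC and DESeq2 in the processing notes and DEGseq in the methods, which describe shoot apices where the labels give seedlings. The counting tool and its use of strand are not given in the sources used here. The authors deposited a normalized signal per gene in 1 table per genotype, described as raw counts. All values up to 50 of genes with 1 transcript were whole multiples of 1 step per library (tolerance 0.001 reads), which gave the estimated reads, but of all low values only 66.8 to 70.2% were whole, so no count test was run. The design had allowed for one had the values been raw counts. In value, 3 reads were worth 1.30 to 5.76.

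Genes in both tables with values of at least 10 in at least 3 libraries were tested (20623 of 21623) with limma 3.58.1 in R 4.3.3 on log2(value + 1), a scale that understates the change of low genes, with 4 group means, a mean-variance trend and Benjamini-Hochberg adjustment over all tested genes. The ratio test used log2 values minus that of ARR7. Tests are two-sided. They were run on simulated data with independent libraries, where pass limits were set for the SNP response test but not for the ratio test. The alternatives were other scalings, pseudocounts (0.5 and 5), filters, thresholds, a replicate block, removal of length and GC trends, and leaving out each library. Replicate numbers come from the labels. In ap1/cal the deviations of same-numbered libraries correlated at 0.12, 0.12 and 0.17, but the main fits did not pair libraries. Pairing was used only in the replicate block alternative, for both genotypes. With nothing in the labels on separate cultures, p-values measure the spread between these libraries.

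Promoters, exon lengths and coding identity (Biopython 1.88) came from RefSeq's TAIR10.1 (99.3% of identifiers matched). All members are named, as are up to 2 higher and 2 lower genes of each pathway group called alike in both genotypes, and the 5 genes most like ARR7. The members and lists were chosen with earlier results of these data known.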

Additional observations from a re-analysis of the deposited data

Results flagged for a closer look

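The SNP response of 3 members differed between the genotypes by the test of the difference itself (limma, Benjamini-Hochberg adjusted over all genes), as it did for 14.6% of all genes. As ap1/cal minus Col-0 on the log2 scale, the difference was -1.02 for ARR3, 0.69 for ARR4 and -0.81 for ARR5. The ARR5 difference kept its call in each of the 12 fits that left out 1 library (-0.89 to -0.73), as did that of ARR4 (0.60 to 0.79), whereas that of ARR3 lost it in 3 of the 12. The ARR4 call was lost with library-size (0.48) and upper-quartile scaling (0.57), which fall short of the fold of 1.5.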

How the results depend on the processing

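The number of members called in Col-0 was 3, and it became 7 with library-size scaling, 5 with upper-quartile scaling, 5 with a pseudocount of 5 and 6 with any fold accepted. The members called for a difference between genotypes went from 3 to 0 when limma tested against a fold of 1.5, where 0 had an unadjusted p below 0.05 too. The relatives whose response differed from that of ARR7 went from 7 to 3 under that test in Col-0, and from 8 to 5 with a filter on a mean of at least 50 in ap1/cal, where only 5 were left to test. ARR7 in Col-0 changed sign with library-size scaling (-0.000392), and ARR15 in ap1/cal without ap1/cal SNP replicate 3 (0.30, in a range of -1.03 to 0.30 over the fits without 1 library). With library-size scaling, 25.3% of called genes were higher in Col-0 (48% as deposited) and 21.9% in ap1/cal (47.5%), and with upper-quartile scaling 35.9% and 32.8%. ARR7 in ap1/cal was no longer called with library-size (0.15) or upper-quartile scaling (0.51) or with length and GC trends removed (0.53), and ARR8 in ap1/cal with those trends removed (-0.34) or tested against a fold of 1.5. Leaving out 1 library gave 3 to 4 members called in Col-0, 7 in ap1/cal and 2 to 4 for the difference, and 7 relatives of ARR7 in Col-0 and 7 to 8 in ap1/cal. The falls of ARR4, ARR5 and ARR6 were called in both genotypes under every alternative run.

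With the replicate block, 4 members were called in Col-0, where the same-numbered libraries did not correlate alike (0.06, 0.06 and -0.05) and ARR16 gained the call (adjusted p = 0.0492), 7 in ap1/cal, 3 for the difference, and 7 and 8 relatives of ARR7. Pairing changed no other call. ARR15, ARR16 and ARR17 rest on 0 to 81.3 estimated reads per library, which limits what their values can show. The fit of each table on its own gives no test of the difference. Of the values of single members under the alternatives, 1002 kept their direction and side of the threshold, 23 lost a call, 24 gained one and 2 changed sign.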
